A study of Mus musculus with 16 samples.

Results

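Parp9, Dtx3l, Parp10, Parp11, Parp12 and Parp14 are 5 genes of the PARP family and 1 gene of the deltex family. They were taken by symbol and make up 6 of the 19752 genes named on the array, with 1 probe set each. Levels were read on whole-transcript Affymetrix mouse arrays as the log2 of the deposited RMA intensity, in 16 arrays that form 8 groups of 2. The question, from the series title, is how interferon-stimulated genes depend on IFNAR1, which is part of the receptor for type I interferons, and on the receptor-bound kinase Tyk2. All mice were male. B10.Q/J mice, aged 7 weeks, carry a natural Tyk2 mutation, and their peritoneal macrophages (ICAM2+ F4/80+) were taken 2 h after 10000 units of IFNα under the skin, 5 h after it, or after vehicle. Macrophages of the same gate came from 6-week-old mice of the line B6.129S2-Ifnar1tm1Agt/Mmjax, which lacks Ifnar1 (KO here), 2 h after IFNα or, by title, without IFNα. Splenic CD4 T cells (TCRB+ CD4+ CD8-) came from B10.Q/J mice 2 h after IFNα, 5 h after it, or after vehicle. No array here is from a mouse with both Ifnar1 and Tyk2 intact. Each vehicle group joins 1 array taken at 2 h (array 1) and 1 taken at 5 h (array 2). Nothing in the labels says that the 2 arrays of a group are separate animals, so p-values measure the spread between these arrays, which may be technical.

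The labels conflict in places. For the KO pair whose titles lack IFNα, the preparation text describes the 2 h injection. The title was followed here, and if the text is right, IFNα was given to both KO groups. The spleen code stands in 5 of the 6 titles of B10.Q macrophages although the source is the peritoneal cavity, and the title of T-cell vehicle array 1 starts with the B-cell code. The markers followed the cell type given by the source. Summed over 8 macrophage markers, the intensity was 35093 to 46040 in the 10 macrophage arrays. In the T-cell arrays it was 6720 in array 1 and 2467 in array 2 at 2 h, 1483 and 1440 at 5 h, and 1663 and 1450 with vehicle. Over 7 CD4 T-cell markers the sum was 34845 to 37422 in the T-cell arrays and 621 to 773 in the macrophage arrays. The median intensity of an array was 174 to 194, and partner arrays of a group had r over genes of 0.984 to 0.997, lowest for the KO pair given IFNα. The Ifnar1 probe set read 9.93 to 10.31 on the log2 scale in the 4 KO arrays. In B10.Q macrophages it read 10.09 to 10.46, and the overlap means that the genotype cannot be checked from it.

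PARP enzymes transfer ADP-ribose from NAD onto proteins and nucleic acids. The founding member builds long chains of ADP-ribose at broken DNA, whereas most of the genes described here encode enzymes that add a single unit, and several are known as interferon-stimulated genes with antiviral roles. Parp9 carries macrodomains, which bind ADP-ribose, and is known from human cells as the partner of Dtx3l, a RING ubiquitin ligase. Parp14, another macrodomain protein, was described in mouse lymphocytes as a coactivator of Stat6. Parp12 has zinc fingers of the CCCH type and belongs with the antiviral protein Zc3hav1, Parp10 was found in human cells as a partner of Myc, and Parp11 is a smaller enzyme with a WWE domain. Type I interferon acts through the transcription factor ISGF3, which contains Stat2 and Irf9 and binds the interferon-stimulated response element (ISRE) in promoters.

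RefSeq promoter windows (GRCm38.p6) were at hand for 3 of the 6 genes. The 250 bases before the start are shown for Dtx3l and Parp12, which passed the test in IFNα-treated B10.Q macrophages, and for Parp11, which did not. They lie at chr16:35939028-35939277 on the minus strand (Dtx3l), chr6:39118350-39118599 on the minus strand (Parp12) and chr6:127446590-127446839 on the plus strand (the first of 2 Parp11 windows). Capitals mark letters that match a searched motif.
Dtx3l: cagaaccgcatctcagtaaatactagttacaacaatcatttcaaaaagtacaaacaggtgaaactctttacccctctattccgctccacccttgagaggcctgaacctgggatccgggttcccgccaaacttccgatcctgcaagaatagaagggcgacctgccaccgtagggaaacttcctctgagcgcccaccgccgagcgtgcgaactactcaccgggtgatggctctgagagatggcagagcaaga
Parp12: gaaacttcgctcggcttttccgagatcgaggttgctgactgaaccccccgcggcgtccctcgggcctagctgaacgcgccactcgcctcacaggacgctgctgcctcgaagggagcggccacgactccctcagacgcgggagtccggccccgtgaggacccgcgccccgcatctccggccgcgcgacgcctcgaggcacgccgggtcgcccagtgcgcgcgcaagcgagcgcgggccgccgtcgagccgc
Parp11: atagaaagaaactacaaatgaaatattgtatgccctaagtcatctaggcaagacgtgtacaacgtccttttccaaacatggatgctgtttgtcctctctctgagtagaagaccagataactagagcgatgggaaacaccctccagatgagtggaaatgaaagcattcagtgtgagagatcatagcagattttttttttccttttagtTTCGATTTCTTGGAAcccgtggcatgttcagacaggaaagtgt

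An ISRE core was searched as GAAANNGAA and a STAT element as TTCNNNGAA, on both strands, from 250 bases before to 50 bases after the start. Of 32851 mouse windows, 8.56% held the first and 8.30% the second. Among the windows of Dtx3l, Parp12 and Parp11, only the first of the 2 Parp11 windows held a match. Its ISRE core lies on the minus strand and reads TTCGATTTC on the plus strand from position -43, counted from the start. Its STAT match, TTCTTGGAA from position -37, overlaps it. A match is letters only, and the other windows simply lack these letters.

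In B10.Q macrophages, the Dtx3l and Parp9 pair and Parp14 rose after IFNα at both times, by 2.38-fold to 3.98-fold, and Parp12 rose at 5 h. Parp10 and Parp11 lay above vehicle by at most 1.49-fold and did not pass the test. With limma's moderated test and Benjamini-Hochberg adjustment over all genes, 3 of the 6 genes were called higher at 2 h, where 0.798% of 10531 genes were (84). At 5 h, 4 of the 6 were called higher, against 0.836% of all genes (88). The median log2 difference over the 6 genes was 1.17 at 2 h and 1.40 at 5 h, beside -0.06 and -0.01 over all genes tested. Both times are set against the same vehicle arrays.

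Parp9 read 10.40 and 9.75 in the B10.Q macrophage arrays at 2 h and 9.89 and 10.07 at 5 h, against 8.38 and 8.30 with vehicle (log2 intensity). Every IFNα array was above both vehicle arrays by more than 1 unit, and array 1 at 2 h was the highest. The log2 difference was 1.73 ± 0.20 at 2 h (SE, n = 2 per group, 3.32-fold, adjusted p = 0.00214) and 1.64 ± 0.20 at 5 h (3.12-fold, adjusted p = 0.00298). Dtx3l, its ligase partner, read 11.37 and 10.85 at 2 h and 11.03 and 10.94 at 5 h, against 9.70 and 9.77 with vehicle. The groups did not overlap, and the 2 h arrays were further apart than the 5 h arrays. The Dtx3l difference was 1.37 ± 0.19 at 2 h (2.59-fold, adjusted p = 0.00797) and 1.25 ± 0.19 at 5 h (2.38-fold, adjusted p = 0.0125). The Dtx3l call at 2 h was lost without IFNα array 1 (1.11, adjusted p = 0.0956) or without either vehicle array (adjusted p of 0.0958 and 0.0709). Its call at 5 h was lost without any one of the 4 arrays (adjusted p of 0.0976 to 0.146), and that of Parp9 without 5 h array 2 (1.55, adjusted p = 0.0517).

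Parp14, the macrodomain enzyme, read 11.91 and 11.18 at 2 h and 11.18 and 11.49 at 5 h, against 9.58 and 9.52 with vehicle. All 4 IFNα arrays stood clear of the vehicle pair. Its difference of 1.99 ± 0.22 at 2 h was the highest of the 6 genes (3.98-fold, adjusted p = 0.00162), and 1.78 ± 0.22 was measured at 5 h (3.45-fold, adjusted p = 0.00311). At 5 h the Parp14 call was lost without 5 h array 2 (1.63, adjusted p = 0.0519). Parp12, the zinc-finger enzyme, read 11.30 and 10.63 at 2 h and 11.51 and 11.60 at 5 h, against 10.03 and 9.96 with vehicle. Its 5 h arrays were close together and above both 2 h arrays. The Parp12 difference at 2 h was 0.96 ± 0.22 (1.95-fold, adjusted p = 0.133), not called, and at 5 h it was 1.56 ± 0.22 (2.94-fold, adjusted p = 0.00855). Without 2 h array 2, which was the lower one, the 2 h difference was 1.30. The 2 h difference passed with the 2 h and vehicle groups fitted alone (adjusted p = 0.0495). The 5 h call was lost without any one of the 4 arrays compared (adjusted p of 0.0703 to 0.107).

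Parp10 read 8.89 and 8.41 at 2 h and 8.55 and 8.73 at 5 h, against 8.04 and 8.11 with vehicle. Parp11 read 8.59 and 8.36 at 2 h and 8.42 and 8.51 at 5 h, against 8.12 and 8.04 with vehicle. For both genes the IFNα arrays lay above the vehicle arrays, by a small step. The Parp10 difference was 0.58 ± 0.19 at 2 h (adjusted p = 0.675) and 0.56 ± 0.19 at 5 h (adjusted p = 0.721), where it passed with the 5 h and vehicle groups fitted alone (adjusted p = 0.0231). The Parp11 difference was 0.40 ± 0.12 at 2 h (adjusted p = 0.447) and 0.39 ± 0.12 at 5 h (adjusted p = 0.472). At an unadjusted p under 0.05 all 6 genes passed at both times, where 476 genes of 10531 did at 2 h and 414 at 5 h.

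**Figure D1:**
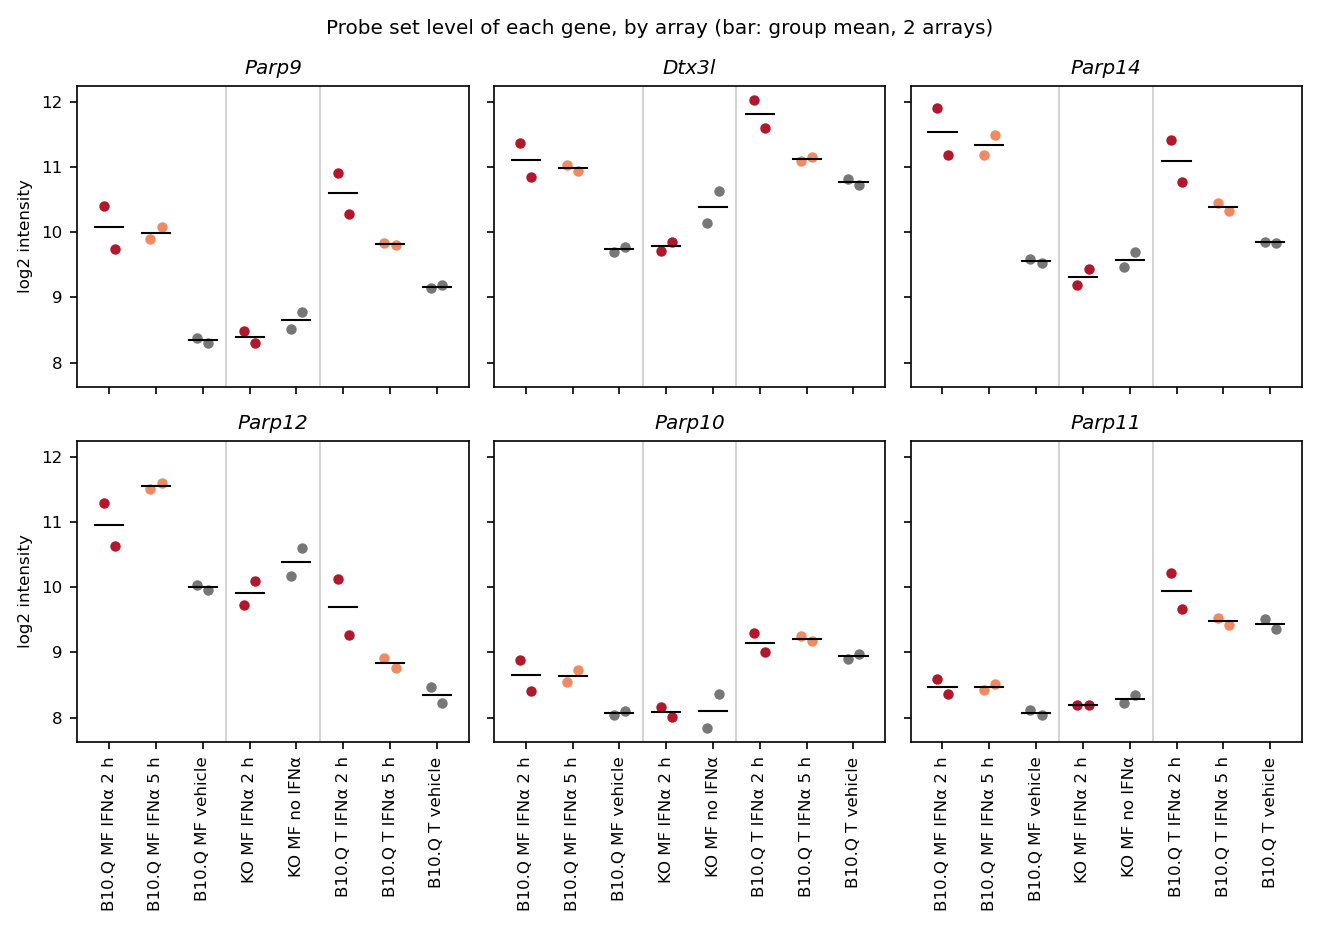
Log2 intensity of each gene's probe set (vertical axis) in the 8 groups (horizontal axis), with 1 point per array and a bar at the mean of 2 arrays. Dark red is 2 h after IFNα, orange 5 h, and grey vehicle or, for KO macrophages (MF), no IFNα by title. Parp9, Dtx3l and Parp14 passed the test in B10.Q macrophages at both times, and of these Parp9 and Dtx3l passed in T cells, at 2 h. None passed in the KO groups, and Parp10 and Parp11 differ more between cell types than with treatment.

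Between 5 h and 2 h none of the 6 genes passed in B10.Q macrophages, where 0.0095% of all genes did (1). At an unadjusted p under 0.05, 1 of the 6 genes (Parp12) passed, and 529 of all genes did. Parp12 was at 0.59 ± 0.22, 5 h minus 2 h, with a 95% interval of 0.10 to 1.08 (adjusted p = 0.904). The other 5 genes lay between -0.21 and -0.01, and their 5 h arrays overlapped the 2 h arrays. For Parp14 the interval was -0.69 to 0.27 and for Parp9 -0.53 to 0.34.

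In KO macrophages none of the 6 genes was higher after IFNα, and the difference was below 0 for each. Of all genes, 0% were called by limma (0 of 10531), while 460 had an unadjusted p under 0.05, Dtx3l among them. Dtx3l read 9.72 and 9.85 in the KO IFNα arrays, against 10.14 and 10.63 in the KO pair titled without it. Both IFNα arrays were the lower ones, and the array titled without IFNα numbered 2 was the highest of the 4. That same array was the highest KO array for each of the 6 genes. The size of the differences therefore leans on 1 array, and the shared sign below 0 is not 6 separate observations. The sign itself changed in the alternatives for Parp10 only, which reached 0.25. The values of the other genes reached no higher than -0.03 (Parp11), and for Dtx3l no higher than -0.36. The Dtx3l difference was -0.60 ± 0.19 (adjusted p = 0.922), with a 95% interval of -1.03 to -0.18.

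Parp9 read 8.48 and 8.30 in the KO IFNα arrays, against 8.52 and 8.78 in those titled without it. Parp14 read 9.19 and 9.43 in the KO IFNα arrays, against 9.46 and 9.70 without IFNα by title. Parp12 read 9.73 and 10.10 in the KO IFNα arrays, against 10.18 and 10.60 without it. For all 3 genes the IFNα arrays were below the others by small steps. The differences were -0.26 ± 0.20 for Parp9, -0.27 ± 0.22 for Parp14 and -0.47 ± 0.22 for Parp12. Parp10 read 8.16 and 8.02 in the KO IFNα arrays, against 7.84 and 8.36 in those titled without it. Parp11 read 8.19 and 8.19, against 8.22 and 8.34. The Parp10 groups overlapped (-0.01 ± 0.19) and the Parp11 groups were close (-0.09 ± 0.12). The 95% intervals reached no higher than 0.42, which was the bound for Parp10. Summed over 5 B-cell markers, the intensity was 1239 in array 1 and 592 in array 2 of the KO IFNα pair, and 1099 in array 1 and 636 in array 2 of the pair titled without IFNα, against 577 to 655 in B10.Q macrophages. Its part in these differences was not tested.

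The 2 h response of Parp9, Dtx3l and Parp14 was larger in B10.Q than in KO macrophages, by a test of the difference of responses. Of the 6 genes, 3 were called higher, where 0.408% of all genes were (43 of 10531). The difference of log2 responses was 2.26 ± 0.31 for Parp14 (adjusted p = 0.0110), 1.99 ± 0.28 for Parp9 (adjusted p = 0.0127) and 1.98 ± 0.27 for Dtx3l (adjusted p = 0.0121). Parp12 was at 1.43 ± 0.31 (adjusted p = 0.123), Parp10 at 0.59 ± 0.28 (adjusted p = 0.848) and Parp11 at 0.49 ± 0.17 (adjusted p = 0.585), none called. Parp12 was at 1.77 without 2 h B10.Q array 2 and at 1.62 without KO IFNα array 2. All 3 calls were lost without B10.Q vehicle array 1, without B10.Q vehicle array 2 or without the KO array 2 titled without IFNα, with values of 1.73 to 2.29 for Dtx3l, Parp9 and Parp14 and adjusted p of 0.0578 to 0.0997. Strain, age, the Tyk2 and Ifnar1 alleles and the kind of control differ together between the lines and cannot be told apart. The B10.Q control is vehicle, with arrays taken at 2 h and 5 h. The KO control is without IFNα by title, and its title names no vehicle and no time.

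Without IFNα, 0 of the 6 genes differed between B10.Q vehicle and KO macrophages titled without IFNα, where 0.541% of all genes did (57 of 10531). Dtx3l had the smallest p, at -0.65 ± 0.19 (B10.Q minus KO, adjusted p = 0.242), and was the 1 gene of the 6 with an unadjusted p under 0.05, as 1215 of all genes had. Parp12 was at -0.39 ± 0.22, Parp9 at -0.31 ± 0.20, Parp11 at -0.21 ± 0.12, Parp14 at -0.03 ± 0.22 and Parp10 at -0.03 ± 0.19.

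In B10.Q T cells, Parp9 and Dtx3l rose at 2 h, by 2.70-fold and 2.06-fold, and none of the 6 genes was called at 5 h. Parp12 and Parp14 were above vehicle by 2.55-fold and 2.37-fold at 2 h and did not pass. At 2 h, 2 of the 6 genes were called higher, where 0.277% of all genes were (28 of 10112), and 5 had an unadjusted p under 0.05, as 614 of all genes did. The median log2 difference of the 6 genes was 1.14 at 2 h and 0.42 at 5 h, beside -0.03 and 0.00 over all genes.

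Parp9 read 10.91 and 10.28 in the T-cell arrays at 2 h and 9.83 and 9.80 at 5 h, against 9.14 and 9.18 with vehicle. The 2 h arrays were highest and unequal, and the 5 h arrays lay between them and vehicle. The Parp9 difference at 2 h was 1.43 ± 0.18 (adjusted p = 0.0356). Dtx3l read 12.03 and 11.60 at 2 h and 11.10 and 11.15 at 5 h, against 10.82 and 10.73 with vehicle, in the same order. Its difference at 2 h was 1.04 ± 0.14 (adjusted p = 0.0449). Both calls lie near the threshold. They were lost without vehicle array 1 (Parp9 and Dtx3l both at adjusted p = 0.518), without vehicle array 2 (adjusted p of 0.511 and 0.629), with a filter at the 70th percentile (0.0507 and 0.0615), with quantile normalization (0.0598 and 0.0952), with every probe set tested (0.0506 and 0.0617) and with the 2 h and vehicle groups fitted alone (0.196 and 0.218).

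Parp14 read 11.42 and 10.76 at 2 h and 10.45 and 10.32 at 5 h, against 9.84 and 9.84 with vehicle. Parp12 read 10.13 and 9.27 at 2 h and 8.92 and 8.76 at 5 h, against 8.46 and 8.23 with vehicle. In both genes array 1 at 2 h stood well above array 2, and no IFNα array overlapped vehicle. The 2 h difference was 1.25 ± 0.19 for Parp14 (adjusted p = 0.0651) and 1.35 ± 0.25 for Parp12 (adjusted p = 0.123). Without 2 h array 1, Parp14 was at 0.92 and Parp12 at 0.92. Without 2 h array 2, Parp14 was at 1.57, Parp12 at 1.78, Parp11 at 0.79 and Parp10 at 0.35. A 2 h group of 1 array adds no spread to the fit, and the SE of Parp14 was then 0.10. Calls in such fits are therefore not read as support. In a fit of all 16 arrays Parp14 and Parp12 were called (adjusted p of 0.0242 and 0.0340), and with array medians subtracted Parp14 was (adjusted p = 0.0456).

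Parp11 read 10.22 and 9.67 at 2 h and 9.52 and 9.43 at 5 h, against 9.52 and 9.36 with vehicle. Parp10 read 9.291 and 9.004 at 2 h and 9.25 and 9.17 at 5 h, against 8.90 and 8.98 with vehicle. The steps were small beside those of Parp9. At 2 h Parp11 was at 0.51 ± 0.17 and Parp10 at 0.21 ± 0.11 (adjusted p = 0.763 for both).

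At 5 h 0.0198% of all genes were called in T cells (2 of 10112) and 387 had an unadjusted p under 0.05, 4 of the 6 genes among them. Parp9 was at 0.65 ± 0.18, Parp14 at 0.54 ± 0.19, Parp12 at 0.49 ± 0.25, Dtx3l at 0.35 ± 0.14, Parp10 at 0.27 ± 0.11 and Parp11 at 0.04 ± 0.17. With the 5 h and vehicle groups fitted alone, Parp9 (adjusted p = 0.00393) and Parp14 (adjusted p = 0.0154) were called. That fit leaves out the 2 h arrays and their spread, and the SE of Parp9 was 0.07 in it. Over all genes, the alternatives called 0 to 63 at 5 h against vehicle. At 5 h against 2 h none of the 6 genes passed in T cells, where 0.00989% of all genes did (1 of 10112). Parp12 was at -0.86 ± 0.25, Parp9 at -0.78 ± 0.18, Parp14 at -0.70 ± 0.19, Dtx3l at -0.69 ± 0.14 and Parp11 at -0.47 ± 0.17, while Parp10 was at 0.06 ± 0.11. Of these, 5 had an unadjusted p under 0.05, as 996 of all genes did. Without 2 h array 2 the 5 genes below 0 were at -0.75 (Parp11) to -1.29 (Parp12).

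Of the 8 macrophage markers, 7 read above both vehicle arrays in 2 h T-cell array 1 and 5 in array 2. Lyz2, a lysozyme of macrophages and other myeloid cells, read 12.20 and 10.02 in the 2 h arrays, against 7.34 and 7.67 with vehicle, and Adgre1 (F4/80) read 8.63 and 6.82, against 6.65 and 5.88. Icam2 did not exceed the vehicle arrays in either 2 h array (9.60 and 9.53, against 9.74 and 9.43), and Gata6 (6.62) and Mertk (6.52) did not in array 2. Taken as the median over the markers, the macrophage share of the RNA was 2.04% in array 1 and 0.364% in array 2. The markers did not agree on it. Lyz2 alone gave 30.9% in array 1 and 5.85% in array 2, while the other 7 gave 0.151% to 3.59% in array 1 and -1.14% to 0.740% in array 2. After the median share was subtracted, Parp9 was at 1.44 (adjusted p = 0.0414) and Dtx3l at 1.05 (adjusted p = 0.0519), so the Dtx3l call was lost while both differences were as large. Parp14 was at 1.24 and Parp12 at 1.33. In bulk samples, fewer cells of a type and less RNA per cell cannot be told apart.

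**Figure D2:**
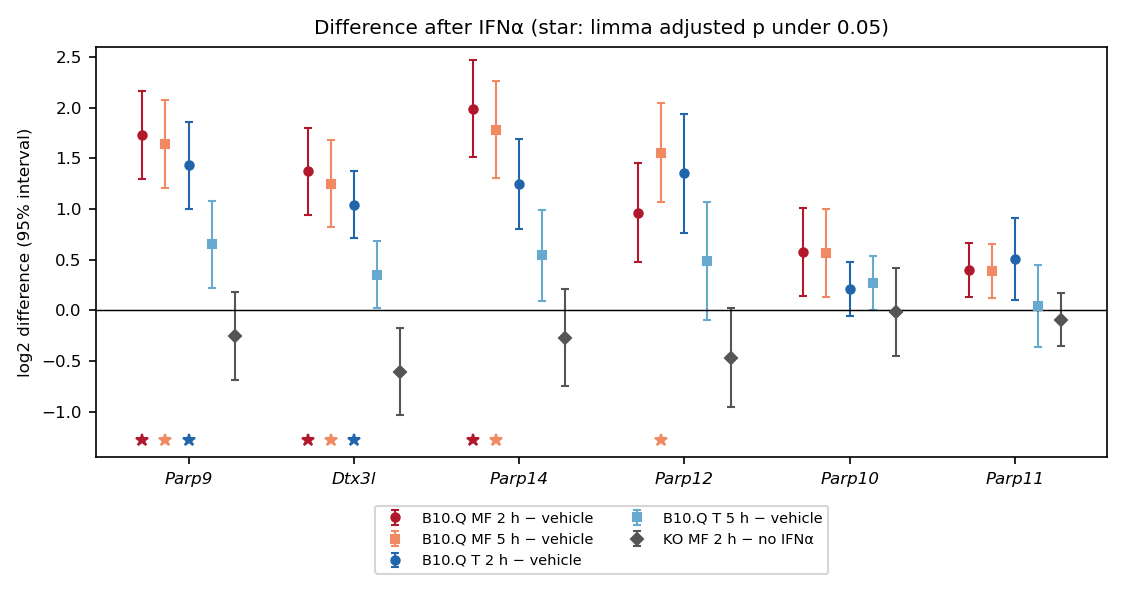
Log2 difference after IFNα (vertical axis, points with 95% intervals from limma) for each gene (horizontal axis) in B10.Q macrophages at 2 h (dark red) and 5 h (orange), B10.Q T cells at 2 h (dark blue) and 5 h (light blue) and KO macrophages at 2 h (grey). Stars mark adjusted p under 0.05. The macrophage values of Parp9, Dtx3l and Parp14 lie between 1.25 and 1.99, and the KO values between -0.60 and -0.01.

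The response of B10.Q macrophages and T cells was compared as a difference of responses, with all arrays taken as independent. At 2 h after IFNα, array 1 read above array 2 for all 6 genes in both cell types. Whether macrophage and T-cell arrays of the same number share mice was not tested. At 2 h none of the 6 genes differed, where 0.0269% of all genes did (3 of 11161), with 1 of the 6 and 815 of all genes at an unadjusted p under 0.05. Parp14 was at 0.74 ± 0.32 (macrophages minus T cells, 95% interval 0.05 to 1.44) and Parp12 at -0.39 ± 0.35 (-1.14 to 0.37). The Parp9 interval was -0.34 to 0.94 and that of Dtx3l -0.17 to 0.84. At 5 h none passed either, where 0.251% of all genes did (28 of 11161), and 4 of the 6 had an unadjusted p under 0.05, as 556 of all genes did. These were Parp14 at 1.24 ± 0.32 (adjusted p = 0.277), Parp12 at 1.06 ± 0.35, Parp9 at 0.99 ± 0.29 and Dtx3l at 0.90 ± 0.23 (adjusted p = 0.281). With the 4 groups of this comparison fitted alone, those 4 genes were called, at adjusted p of 0.0010 (Parp14), 0.00118 (Parp9), 0.00146 (Dtx3l) and 0.00216 (Parp12). That fit leaves out the 2 h groups and their spread, and the SE of Parp14 was 0.14 in it. Over all genes, the alternatives called 6 to 140 in this comparison.

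With vehicle, Parp9, Dtx3l, Parp10 and Parp11 were lower in macrophages than in T cells, and Parp12 was higher. The differences, macrophages minus T cells, were -1.36 ± 0.15 for Parp11 (0.390-fold, adjusted p = 7.36e-06), -1.04 ± 0.16 for Dtx3l (0.487-fold, adjusted p = 1.30e-04), -0.86 ± 0.15 for Parp10 (0.549-fold, adjusted p = 2.34e-04) and -0.82 ± 0.21 for Parp9 (0.565-fold, adjusted p = 0.0040). Parp12 was at 1.65 ± 0.24 (3.14-fold, adjusted p = 7.67e-05). Parp14 was at -0.29 ± 0.23 (adjusted p = 0.288) and passed only with the vehicle groups fitted alone (adjusted p = 0.00812). Calls are common in this comparison, at 34.1% of all genes lower and 28.1% higher, so 4 lower and 1 higher of 6 is read against that. All 5 calls were kept in each of the 13 alternatives run.

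The order of the 8 groups differed between the genes. Parp9 was highest in T cells at 2 h (mean 10.60 ± 0.45, SD, n = 2), followed by macrophages at 2 h (10.07 ± 0.46) and 5 h (9.98 ± 0.13), and the macrophages at 2 h overlapped both other groups in range. T cells at 5 h (9.82 ± 0.02) lay below macrophages at 5 h but within the range of those at 2 h. T cells with vehicle (9.16 ± 0.03) and KO without IFNα (8.65 ± 0.19) followed with no overlap, and KO with IFNα (8.39 ± 0.12) and B10.Q macrophages with vehicle (8.34 ± 0.06) overlapped at the bottom. Dtx3l had the same 2 groups at the bottom and T cells at 2 h on top (11.82 ± 0.31), clear of T cells at 5 h (11.13 ± 0.04). For Parp11 all 3 T-cell groups (9.44 to 9.95) stood above all 5 macrophage groups (8.08 to 8.47), and for Parp10 likewise (8.94 to 9.21 against 8.07 to 8.65). Parp12 ran the other way, with all 5 macrophage groups (9.92 to 11.55) above the T-cell groups (8.35 to 9.70) by their means, although T-cell array 1 at 2 h (10.13) was above both arrays of KO with IFNα (9.73 and 10.10) and of vehicle macrophages (10.03 and 9.96). Parp14 was highest in macrophages at 2 h (11.54 ± 0.51), and macrophages at 5 h (11.34 ± 0.22) and T cells at 2 h (11.09 ± 0.46) each overlapped the group before. Its lowest group was KO with IFNα (9.31 ± 0.17).

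Parp14, Dtx3l and Parp9 lie side by side on chromosome 16 in the RefSeq gene order, and the gene models of Dtx3l and Parp9 overlap. Probe positions were not examined, so whether the 2 probe sets read from shared sequence was not tested. The 3 genes are flanked by Hspbap1 and Kpna1, which were looked up after the values were seen. Hspbap1, which encodes a protein that binds a heat shock protein, was at -0.30 ± 0.16 in B10.Q macrophages at 2 h and -0.05 ± 0.16 at 5 h. Kpna1, an importin alpha, was at -0.13 ± 0.15 and 0.07 ± 0.15. In T cells at 2 h Hspbap1 was at 0.23 ± 0.10 and Kpna1 at 0.03 ± 0.10, and neither passed in any of the 3 comparisons. The 3 genes between them ranged from 1.04 to 1.99 in the same comparisons. Parp11 and Parp12 lie on chromosome 6 and Parp10 on chromosome 15.

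**Figure D3:**
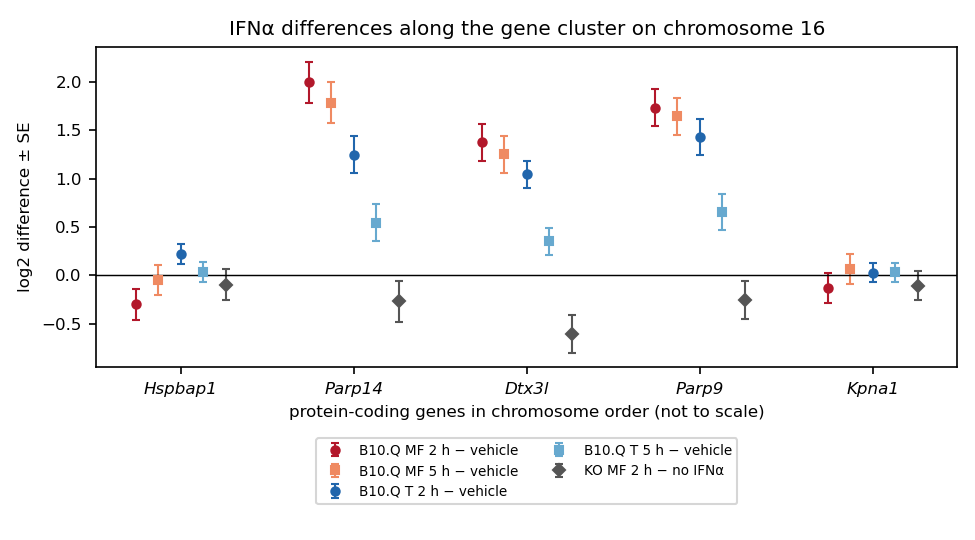
Log2 difference with its SE (vertical axis) for Hspbap1, Parp14, Dtx3l, Parp9 and Kpna1 in chromosome order (horizontal axis, not to scale), for the IFNα comparisons of B10.Q macrophages (dark red, orange), B10.Q T cells (dark and light blue) and KO macrophages (grey). The 3 inner genes lie above 1 in B10.Q macrophages and in T cells at 2 h, and the outer genes stay between -0.30 and 0.23.

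Over the 16 arrays, after the mean of each line and cell type was subtracted, the 6 genes correlated with each other at Pearson r of 0.66 (Parp10 and Parp11) to 0.99 (Parp9 and Parp14), and Parp9 and Dtx3l at 0.96. The arrays share their treatment groups, so this is a description of shared differences. Among 9362 other genes, those most like Parp9 were Cmpk2 (r = 0.989), Slfn8 (0.989) and Usp18 (0.988). Those most like Parp14 were Stat2 (0.991), Oas1b (0.986) and Slfn8 (0.983), and for Dtx3l they were Gm12250 (0.977), Irgm1 (0.970) and Slfn1 (0.968). Parp12 was most like Dhx58 (0.966), Trim30a (0.966) and Nampt (0.959). The closest genes were less close for Parp11 (Trim21 at 0.936, 9330175E14Rik at 0.928 and Pttg1 at 0.923) and for Parp10 (Il15ra at 0.904, Zbp1 at 0.894 and Adar at 0.891).

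Other genes that write, read or remove ADP-ribose moved little with IFNα. Of 10 other ADP-ribosyltransferases tested, 1 was called higher in B10.Q macrophages at 2 h and none at 5 h, none in KO macrophages and none in T cells. The called gene was Zc3hav1, the zinc-finger antiviral protein, which lacks the enzyme activity. Zc3hav1 read 10.71 and 10.33 at 2 h and 10.30 and 10.45 at 5 h, against 9.72 and 9.57 with vehicle, and 9.17 and 9.58 in KO macrophages after IFNα, against 9.49 and 9.51. Its difference in B10.Q macrophages was 0.88 ± 0.17 at 2 h (1.83-fold, adjusted p = 0.0467) and 0.72 ± 0.17 at 5 h (adjusted p = 0.130), and in T cells at 2 h it was 0.24 ± 0.09. Tiparp and Parp8 came next at 2 h in macrophages, at 0.39 ± 0.16 and -0.24 ± 0.11. The list median was -0.16 at 2 h in macrophages and 0.05 at 2 h in T cells, beside 1.17 and 1.14 for the 6 genes. With vehicle, 7 of the 10 were lower in macrophages than in T cells and 2 higher, with Parp8 at -1.41 ± 0.09, Zc3hav1 at -1.42 ± 0.12 and Tiparp at 1.08 ± 0.14.

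Of 8 genes for ADP-ribose removal and macrodomain proteins, none was called in any IFNα comparison of either cell type, and Macrod2 (-0.20 ± 0.24) and Chd1l (-0.12 ± 0.14) had the smallest p in macrophages at 2 h. The other deltex genes and ligases that bind ADP-ribose chains, 5 tested in macrophages and 6 in T cells, also gave no call, with Chfr at -0.12 ± 0.15 and Dtx1 at -0.11 ± 0.19 in macrophages at 2 h. Dtx1 and Dtx3 were among 4 of the 6 that were lower in vehicle macrophages than in T cells, at -3.77 ± 0.21 and -1.42 ± 0.13, and Dtx4 was the 1 that was higher, at 0.79 ± 0.11. None of the genes of NAD supply and use, 16 tested in macrophages and 13 in T cells, was called after IFNα. Nampt, the rate-limiting enzyme of NAD salvage, came first in both cell types. It read 10.89 and 10.28 in macrophages at 2 h and 10.66 and 10.74 at 5 h, against 9.79 and 9.62 with vehicle. The Nampt difference was 0.88 ± 0.20 at 2 h (adjusted p = 0.126), 0.99 ± 0.20 at 5 h (adjusted p = 0.0612) and 1.05 ± 0.19 in T cells at 2 h (adjusted p = 0.113).

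Of 8 genes of the receptor and of ISGF3 signalling, 3 were called higher in B10.Q macrophages at both times. Irf7, a transcription factor that amplifies interferon output, was at 2.70 ± 0.28 at 2 h and 2.83 ± 0.28 at 5 h. Stat2 was at 2.07 ± 0.26 and 1.87 ± 0.26, and Irf9 at 1.62 ± 0.20 and 1.54 ± 0.20. The same 3 genes passed the test of B10.Q against KO responses, at 3.23 ± 0.40, 2.29 ± 0.37 and 2.28 ± 0.28. In T cells at 2 h Irf7 (1.87 ± 0.16) and Irf9 (1.20 ± 0.09) rose, and Stat2 was at 1.03 ± 0.24 (adjusted p = 0.358). Ifnar1 was at -0.15 ± 0.15 in macrophages at 2 h, and Irf1 at 1.41 ± 0.30 (adjusted p = 0.0964). At 5 h none of the 8 was called in T cells, with Irf9 at 0.82 ± 0.09 (adjusted p = 0.0579).

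**Figure D4:**
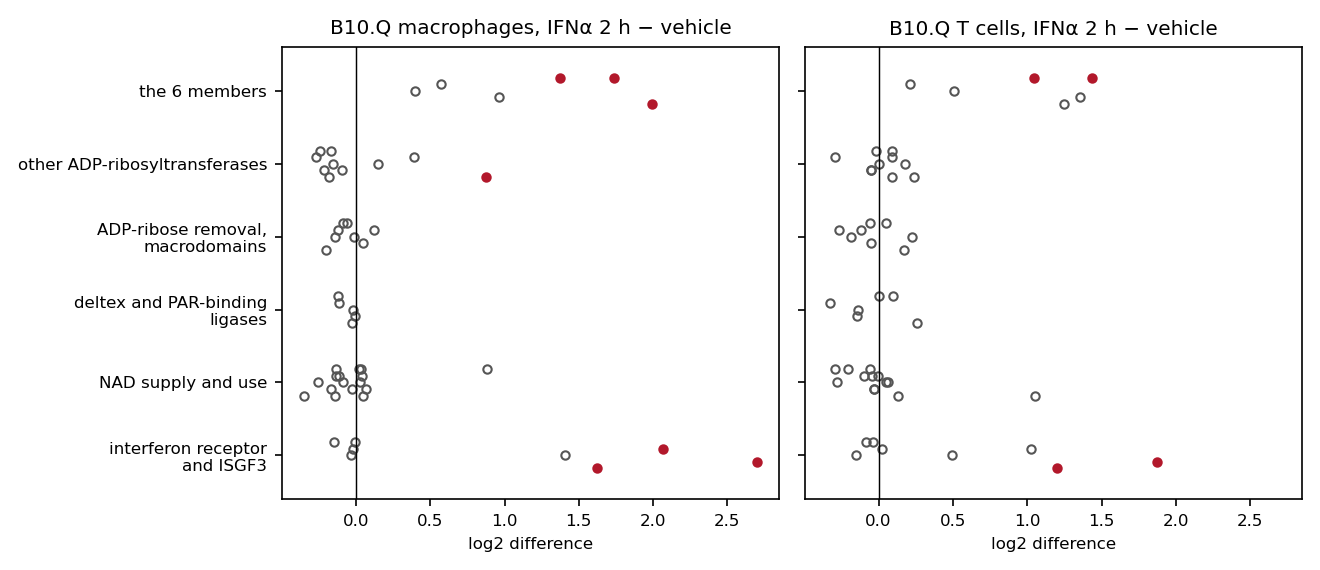
Log2 difference at 2 h after IFNα (horizontal axis) for the genes tested in each list (vertical axis, 1 point per gene), in B10.Q macrophages (left) and B10.Q T cells (right). Filled red points have a limma adjusted p under 0.05. The 6 genes lie at 0.40 to 1.99 in macrophages and 0.21 to 1.43 in T cells, and most points of the ADP-ribose and NAD lists lie near 0.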

How the data were processed

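The deposited intensity of each probe set came from total RNA of sorted cells, which per the labels' protocols was amplified by a whole-transcript kit from Ambion. RMA and Affymetrix Power Tools are named in the submitters' processing notes, with versions not given in the sources used here. RMA normally draws arrays to a common distribution, so levels are relative. Values were on a linear scale, and log2 was taken with no further scaling. Of 24922 probe sets, 21425 had 1 gene symbol, 1399 several and 2098 none. Names were checked by Entrez identifier against RefSeq (GRCm38.p6; 21347 matched, 0 symbols changed). The probe set with the highest mean stood for a gene with several.

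Fits were made with limma 3.58.1 in R 4.3.3 (lmFit, eBayes, two-sided): 10 macrophage, 6 T-cell and 12 B10.Q arrays, with 12 contrasts. Testing required a level above the array's own median on at least 2 arrays in the fit. P-values were adjusted by Benjamini-Hochberg over all tested genes, and a call is an adjusted p under 0.05. Errors are SEs from the fit unless marked SD. The procedure was tested on simulated arrays drawn independently, with known changes. That does not cover arrays that share animals or a single array that stands apart. Precision is set by the number of arrays.

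Members and lists were chosen with earlier results of these data known. Of each list, called genes (up to 6, smallest p first) and up to 2 others with the smallest p could be named, with Ifnar1 and, per member, the 3 genes with the highest r. The macrophage share was estimated from 8 markers. The alternatives tried were quantile normalization, array medians subtracted, a cut at the 70th percentile in place of the median or none, a trended robust variance, every probe set, the replicate number as a block, only the groups compared, all 16 arrays, and each array left out. Subtraction of macrophage RNA and crossed replicate numbers were added after seeing the data.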

Additional observations from a re-analysis of the deposited data

Results flagged for a closer look

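The difference between the 2 h responses of B10.Q and KO macrophages passed its own test for 3 of the 6 genes. It was 1.99 on the log2 scale for Parp9 (1.73 in B10.Q, -0.26 in KO), 1.98 for Dtx3l (1.37 in B10.Q, -0.60 in KO) and 2.26 for Parp14 (1.99 in B10.Q, -0.27 in KO). Each KO value rests on a pair titled without IFNα whose preparation text states an injection. Groups of 2 arrays allow no test for a single array that stands apart.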

How the results depend on the processing

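Values of single genes that changed sign were all uncalled, the furthest from 0 being -0.39 for Parp12 and 0.30 for Parp9 (macrophage minus T-cell response at 2 h). With array medians subtracted, 5 h minus 2 h in B10.Q macrophages was 0.014 for both Parp10 and Parp11. The comparison called untreated in this section is B10.Q vehicle minus KO titled without IFNα. With array medians subtracted, its difference was 0.028 for Parp10 and 0.027 for Parp14. With each array left out in turn, 5 h minus 2 h in B10.Q macrophages ran from -0.42 to 0.23 for Parp9, -0.39 to 0.14 for Dtx3l, -0.25 to 0.23 for Parp10, -0.13 to 0.11 for Parp11 and -0.57 to 0.15 for Parp14. KO macrophages gave -0.28 to 0.25 for Parp10, and untreated B10.Q minus KO gave -0.29 to 0.235 for Parp10 and -0.15 to 0.0898 for Parp14. T cells gave -0.0389 to 0.12 for Parp11 (5 h against vehicle) and -0.0799 to 0.21 for Parp10 (5 h against 2 h). Macrophage minus T-cell responses at 2 h gave -0.0250 to 0.63 for Parp9, -0.39 to 0.16 for Parp11 and -0.82 to 0.0424 for Parp12.

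Members called at 2 h in T cells numbered 2, but 0 with a filter at the 70th percentile, with quantile normalization, with every probe set or with only the groups compared, 4 with all 16 arrays, 1 with macrophage RNA subtracted, and 0 to 6 with an array left out. Fitting only the groups compared gave 2 in T cells at 5 h (0 otherwise) and 4 for the response difference between cell types at 5 h (0 otherwise). With an array left out, B10.Q macrophages at 5 h gave 0 to 2 (4 with all arrays), the B10.Q minus KO responses 0 to 4 (3 with all arrays) and T cells at 5 h against 2 h 0 to 5 (0 with all arrays); the arrays are named beside each result. Counts over all genes moved by more than 1.5 times: 36 to 123 across the alternatives for B10.Q macrophages at 2 h (84 as reported), 29 to 203 at 5 h (88), 0 to 1191 in KO (0), 8 to 491 for B10.Q minus KO (43), 21 to 198 for untreated B10.Q against KO (57), 0 to 1817 for T cells at 2 h (29), 0 to 63 at 5 h (2) and 0 to 1641 at 5 h against 2 h (1). For macrophages at 5 h against 2 h the range was 1 to 40 (1), and for macrophage minus T-cell responses 1 to 511 at 2 h (3) and 6 to 140 at 5 h (28).

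Over all genes, replicate numbers were not shown to pair arrays. Deviations of equal-numbered arrays correlated at -0.22 to 0.28 over the pairs of groups compared. Where a comparison joins only 2 groups, the range was -0.22 (KO) to 0.09. The members alone were not checked in this way, and at 2 h after IFNα each read higher in array 1 in both cell types of B10.Q. With the replicate block, 4 members (Parp9, Dtx3l, Parp12 and Parp14) were called in T cells at 2 h, against 2 without, and no other count of members changed by more than 1.5 times. The crossed numbering in KO called 0 members and 0 genes. With 2 arrays per group, losing a call when 1 is left out also reflects fewer arrays. A group left with 1 array adds no spread to the fit, so calls can also be gained in that way.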
